A study of Saccharomyces cerevisiae with 12 samples.

Results

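The genes named UTP, RRP, NOP or NOC with a number encode factors that process ribosomal RNA and assemble ribosomes. They were taken as every row of the deposited tables whose standard name is one of these prefixes followed only by digits, which gave 56 of the 6660 genes of the series: 18 UTP, 18 RRP, 17 NOP and 3 NOC genes. Messenger RNA was sequenced in 12 libraries of the haploid budding yeast background BY4741, and the authors deposited FPKM (fragments per kilobase of gene scaled to library size) in 3 tables. The first table holds wild type (WT) replicate 1, mmm1Δ replicate 1 and mdm34Δ, which lack subunits of ERMES, the tether between the endoplasmic reticulum and mitochondria. The second holds WT replicate 2 with 6 mutants: mmm1Δ replicate 2, sam37Δ, AFT1-C291F, the allele VPS13-D716H by itself, and that allele joined to mmm1Δ or to sam37Δ. All ratios to WT in this table share that 1 WT library. Vps13 is a lipid transfer protein of organelle contacts, Sam37 belongs to the sorting machinery of the mitochondrial outer membrane, and AFT1-C291F is an allele of the iron regulator Aft1 that the labels also call Aft1-1up. These 10 cultures grew in YPD, a rich glucose medium, to an OD600 of 0.8 to 1. The third table holds WT grown in clean YPD (so named in the labels), without and with the iron chelator bathophenanthroline disulfonate (BPS) at 100 µM for 4 hours. Apart from WT and mmm1Δ in YPD, with 2 libraries each, every group has 1 library, so most comparisons below have no replicate check.

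In yeast the ribosomal RNA precursor is made by RNA polymerase I in the nucleolus. The small subunit processome, a large assembly built on the U3 small nucleolar RNA, folds and cuts its 5′ part, while other factors build the large subunit, and the exosome trims RNA 3′ ends. The genes for these factors are known to be transcribed together when cells grow, and to be shut off together under stress, and many carry the promoter motifs PAC and RRPE. The mRNA levels measured here say nothing of protein or of ribosomal RNA. FPKM is a share of a library, so a lower value can also come from other transcripts taking more of it.

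Most of these genes were transcribed at a middling level, and the order of the extremes was alike in nearly all libraries. In WT replicate 2 the median FPKM was 88.9, against 41.5 over all genes, and members stood at a median percentile of 67.9. NOP10, a subunit of the box H/ACA particles that guide pseudouridine formation, had the highest level in all 12 libraries, between 5623 and 33489. This gene is only 177 nt long, and FPKM of such short genes is sensitive to the length correction. Behind it came NOP1, the methyltransferase fibrillarin of the box C/D particles, at 324 to 1551. UTP20, the longest member at 7482 nt and a large scaffold protein of the processome, had the lowest level in 11 libraries, and NOP8 in AFT1-C291F. None of the 56 was listed at 0 in any library. MMM1, MDM34 and SAM37 were listed at 0 in just the libraries whose labels delete them. Ratios are differences of log2(FPKM + 1) between 2 libraries of 1 table. Genes whose FPKM averaged below 5 in the libraries set against each other were left out, and a ratio of 2-fold or more is counted as higher or lower. The tables were normalized separately: between the WT libraries of the first and second tables the median log2 difference was 1.52 for all genes and 2.19 for the members, higher in the second.

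The 7 members central to their complexes were followed through all libraries, with FPKM given in the order WT, mmm1Δ, mdm34Δ for the first table, then WT, mmm1Δ, VPS13-D716H alone, that allele with mmm1Δ, then sam37Δ, the allele with sam37Δ, and last AFT1-C291F for the second. In the box C/D particles NOP1 was at 504, 350.3 and 324 in the first table, 1236, 812, 1244, 434, 992, 1069 and 1551 in the second, and 1059.9 without BPS against 1165 with it. Its partner in the core NOP56 was at 79.9, 116 and 136 in the first table, 434, 319, 384, 165, 293, 319 and 657 in the second, and 318 without BPS against 289.8 with it. The other core protein gene NOP58 was at 70.8, 93.3 and 114 in the first table, 324, 228, 332, 90.95, 227, 259 and 549 in the second, and 256 without BPS against 244 with it. In the second table these genes were lowest in VPS13-D716H mmm1Δ and highest in AFT1-C291F, and in the first NOP1 was highest in WT while NOP56 and NOP58 were lowest there. The UTP-A gene UTP10 was at 7.06, 15.9 and 16.9 in the first table, 25.98, 35.1, 34.04, 5.53, 30.2, 38.04 and 120.3 in the second, and 39.2 without BPS against 40.1 with it. The scaffold gene UTP20 was at 1.90, 2.51 and 3.27 in the first table, 16.6, 14.8, 19.9, 3.72, 22.9, 23.3 and 92.6 in the second, and 22.1 without BPS against 21.1 with it. The processing factor gene RRP5 was at 5.63, 8.31 and 10.7 in the first table, 29.3, 32.2, 35.8, 7.45, 52.5, 53.00 and 157 in the second, and 54.5 without BPS against 55.2 with it. These long genes were higher in AFT1-C291F than in any other library of the second table. The exonuclease gene RRP6 was at 15.3, 15.98 and 18.98 in the first table, 66.04, 48.9, 57.7, 17.7, 62.8, 66.2 and 102 in the second, and 68.5 without BPS against 68.8 with it. For RRP6, again, the double mutant was the low library of its table.

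**Figure D1:**
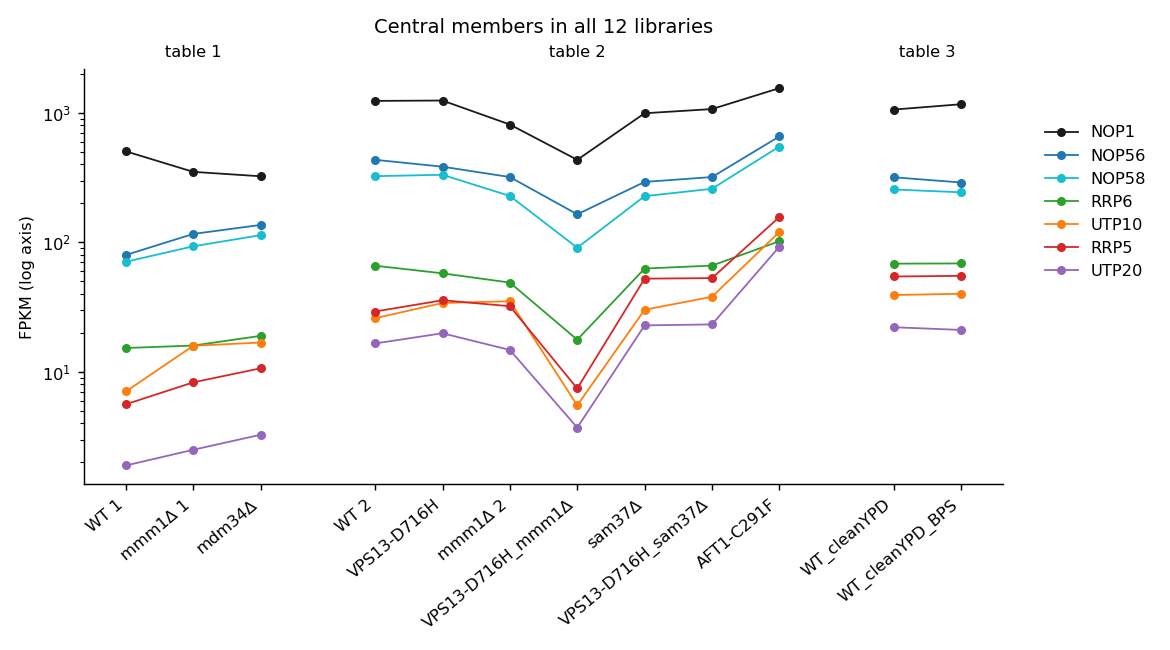
FPKM (log axis) of 7 central members in each of the 12 libraries, grouped by deposited table; each point is 1 library and lines only join the points of a gene within a table. In the second table every gene is lowest in VPS13-D716H mmm1Δ and highest in AFT1-C291F.

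The whole family was lower in the VPS13-D716H mmm1Δ library. All 56 members were below WT replicate 2, as were 49.8% of all genes (50.2% were above), and 53 of them by at least 2-fold, where 11.6% of the 6216 genes measured were that much lower. None was 2-fold higher, against 11.7% of all genes. The median log2 ratio of the members was -1.90, a 3.73-fold lower level, while the median of all genes was 0.00. The members lay between the percentiles 0.965 and 23.4 of all genes by this ratio, with a median percentile of 3.79. Across the 7 libraries of the table, the double mutant had the lowest value for 55 of the 56 members, whereas it was lowest for 26.3% of all genes. The exception was RRP46, lowest in AFT1-C291F. There is 1 library of this genotype, so its own spread between cultures is unknown, and no test was run.

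By size of the ratio the lower end was held by RRP12, UTP23 and UTP4. RRP12 encodes a repeat protein that helps both subunits leave the nucleus. Its FPKM was 5.699 in the double mutant, 43.6 in WT replicate 2, 45.1 in mmm1Δ replicate 2, 65.5 in VPS13-D716H, 79.7 in sam37Δ, 207 in AFT1-C291F and 86.7 in VPS13-D716H sam37Δ. The double mutant was thus the low library and AFT1-C291F the high one, with a log2 ratio of -2.73 over WT for the former. UTP23, a factor of early small subunit maturation, was at 34.0 in the double mutant, 222 in WT replicate 2, 137 in mmm1Δ replicate 2, 154 in VPS13-D716H, 106 in sam37Δ, 167 in AFT1-C291F and 112 in VPS13-D716H sam37Δ. For UTP23 the WT library was the highest of the table. UTP4, of the UTP-A complex, was at 7.41 in the double mutant and at 36.4 to 120 in the other libraries of the table, a ratio of -2.62 over WT.

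At the upper end stood RRP7, RRP46 and RRP43, the only members short of a 2-fold difference. RRP7, of the UTP-C complex, was at 68.0 in the double mutant, 98.7 in WT replicate 2, 136 in mmm1Δ replicate 2, 139 in VPS13-D716H, 126 in sam37Δ, 170 in AFT1-C291F and 132 in VPS13-D716H sam37Δ. It was still lowest in the double mutant, by -0.53 on the log2 scale against WT. RRP46 and RRP43, both of the ring of the exosome, had ratios of -0.58 and -0.68. RRP46 ranged between 134 and 220 in the table, with 147 in the double mutant and 145 in sam37Δ.

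The promoters of the lowest and the highest members are shown because they frame this range; both ends were taken among genes alone at their locus. They are from the genome assembly R64, the same as sacCer3, and run from 250 bases before to 50 after the coding start. RRP12 is at chrXVI:529473-529772 on the plus strand, UTP23 at chrXV:333342-333641 on the plus strand, RRP7 at chrIII:65519-65818 on the minus strand and RRP46 at chrVII:676293-676592 on the minus strand. Each is written 5′ to 3′ along the gene, and capitals mark matches to PAC (GCGATGAG) or RRPE (AAAAATTTT) on either strand.
RRP12: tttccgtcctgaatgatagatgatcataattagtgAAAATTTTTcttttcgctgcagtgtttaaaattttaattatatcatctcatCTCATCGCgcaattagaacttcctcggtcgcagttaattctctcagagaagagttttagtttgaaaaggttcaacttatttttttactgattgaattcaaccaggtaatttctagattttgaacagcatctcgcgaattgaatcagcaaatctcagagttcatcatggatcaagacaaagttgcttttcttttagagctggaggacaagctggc
UTP23: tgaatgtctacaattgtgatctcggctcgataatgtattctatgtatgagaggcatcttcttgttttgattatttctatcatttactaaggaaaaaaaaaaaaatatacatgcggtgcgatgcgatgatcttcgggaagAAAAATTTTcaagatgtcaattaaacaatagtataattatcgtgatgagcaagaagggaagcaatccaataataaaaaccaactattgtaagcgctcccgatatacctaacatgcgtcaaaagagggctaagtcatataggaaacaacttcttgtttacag
RRP7: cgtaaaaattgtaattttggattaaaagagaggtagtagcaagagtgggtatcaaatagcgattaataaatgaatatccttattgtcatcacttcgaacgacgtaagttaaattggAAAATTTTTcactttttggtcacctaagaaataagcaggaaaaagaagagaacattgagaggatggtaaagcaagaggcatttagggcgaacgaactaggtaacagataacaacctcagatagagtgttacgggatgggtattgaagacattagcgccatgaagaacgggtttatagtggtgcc
RRP46: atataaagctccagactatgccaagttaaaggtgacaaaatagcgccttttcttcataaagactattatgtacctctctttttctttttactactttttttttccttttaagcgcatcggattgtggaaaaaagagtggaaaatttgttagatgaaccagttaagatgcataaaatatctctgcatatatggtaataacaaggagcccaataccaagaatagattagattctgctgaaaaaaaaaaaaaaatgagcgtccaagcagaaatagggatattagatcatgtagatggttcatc

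RRP12 holds 1 match of each motif and UTP23 has RRPE only. RRP7 also holds RRPE, with a ratio near the top of the family, and RRP46 has neither. Over the family, PAC was found in 24 of 56 promoters (42.9%) and RRPE in 27 (48.2%), against 3.93% and 6.98% of the 6001 promoters of protein-coding genes searched. Of the other ribosome biogenesis factors listed, 57.7% had PAC and 69.2% RRPE. Among cytosolic ribosomal protein genes the shares were 0.730% and 4.38%. Matches lay mostly between the positions -200 and -51 from the start, 21 of 24 for PAC and 29 of 34 for RRPE, where RRPE matches on opposite strands can overlap and are then counted separately. In UTP4 the PAC match begins within the coding sequence.

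The ratios in the double mutant were read by motif as a description. The 13 members with both motifs had a median of -2.07, from RRP12 at -2.73 to NOP7, of the large subunit precursor, at -1.34. The 11 with PAC alone had a median of -1.90 and the 14 with RRPE alone -1.87. The 18 with neither had a median of -1.67, from RRP17 at -2.47 to RRP46 at -0.58, and they include RRP40, RRP42, RRP43, RRP45 and RRP46 of the exosome. A match is a run of letters and not a bound site, and genes without a match were lower as well.

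**Figure D2:**
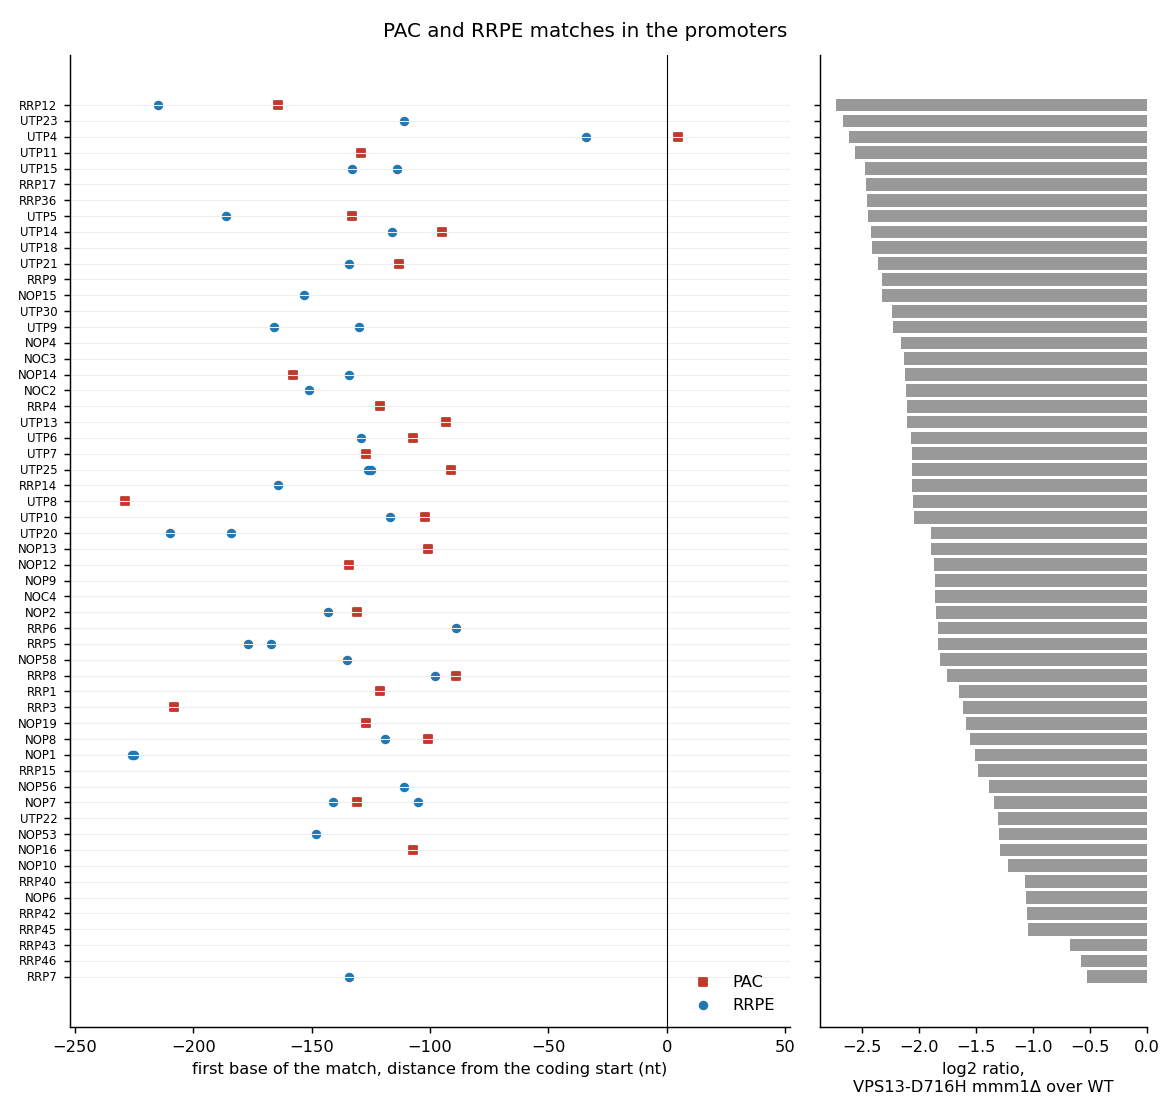
Left: distance in nt of the first base of each PAC (square) or RRPE (circle) match from the coding start, 1 row per member; right: log2 ratio of (FPKM + 1) of VPS13-D716H mmm1Δ over WT replicate 2, by which rows are ordered. Rows without a symbol have no match, among them RRP46 and RRP43 with ratios of -0.58 and -0.68.

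Each complex of the small subunit processome had members at least 2-fold lower. UTP-A binds the nascent precursor first, and its members UTP4, UTP5, UTP8, UTP9, UTP10 and UTP15 were lower by between -2.62 and -2.05. UTP10, a repeat protein of 5310 nt coding length, was at FPKM 5.53 in the double mutant against 25.98 in WT replicate 2, 34.0 in VPS13-D716H and 35.1 in mmm1Δ replicate 2. NAN1, the subunit of UTP-A outside the name pattern, was at -2.22. In UTP-B, which joins next, UTP6, UTP13, UTP18 and UTP21 lay between -2.41 and -2.07, and the subunits PWP2 and DIP2 at -2.76 and -2.23. UTP-C, which links the processome to ribosomal protein gene control, had the ratios -1.31 for UTP22 and -0.53 for RRP7.

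The 16 other small subunit factors were each at least 2-fold lower, with a median of -2.07. RRP5, needed for cuts toward both subunits, was at FPKM 7.45 against 29.3 in WT replicate 2, a ratio of -1.84. UTP20 was at 3.72 against 16.6, a ratio of -1.90. The helicase gene RRP3 was at -1.61, and NOP6, which binds RNA early in the pathway, had the smallest difference of these genes at -1.07.

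The proteins of small nucleolar particles had a wide spread. Among box C/D proteins, NOP1 was at 434 in the double mutant and at 812 to 1551 in the other libraries of the table, a ratio of -1.51 over WT. The core proteins NOP56 and NOP58 had the ratios -1.39 and -1.82, and RRP9, bound to U3, had -2.33. NOP10 was at -1.22, beside -1.48, -1.53 and -0.92 for its partners CBF5, NHP2 and GAR1. NOP56, NOP58 and RRP9 each share a listed locus with another gene, so their reads may be mixed.

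All 16 large subunit factors were at least 2-fold lower, with a median of -1.86. RRP17, an exonuclease that trims 5′ ends, was at -2.47 (its locus overlaps another gene) and NOP15, an RNA-binding assembly factor, at -2.33. The methyltransferase gene NOP2 was at -1.86, and NOC2 and NOC3 were at -2.12 and -2.14. NOP16, an early 60S factor, had the smallest difference at -1.29.

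Exosome genes had the median nearest to 0 of the larger groups, -1.06. RRP4, a cap subunit, was at -2.11 and RRP6, the nuclear exonuclease, at -1.84. The ring and cap genes RRP40, RRP42, RRP45, RRP43 and RRP46 lay between -1.08 and -0.58. With their partners outside the name pattern, 12 of 14 exosome genes were at least 2-fold lower, led by the helicase gene MTR4 at -2.63. In the plot of ratios by role, RRP46 and RRP43 of this group lie nearer to 0 than 2-fold.

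**Figure D3:**
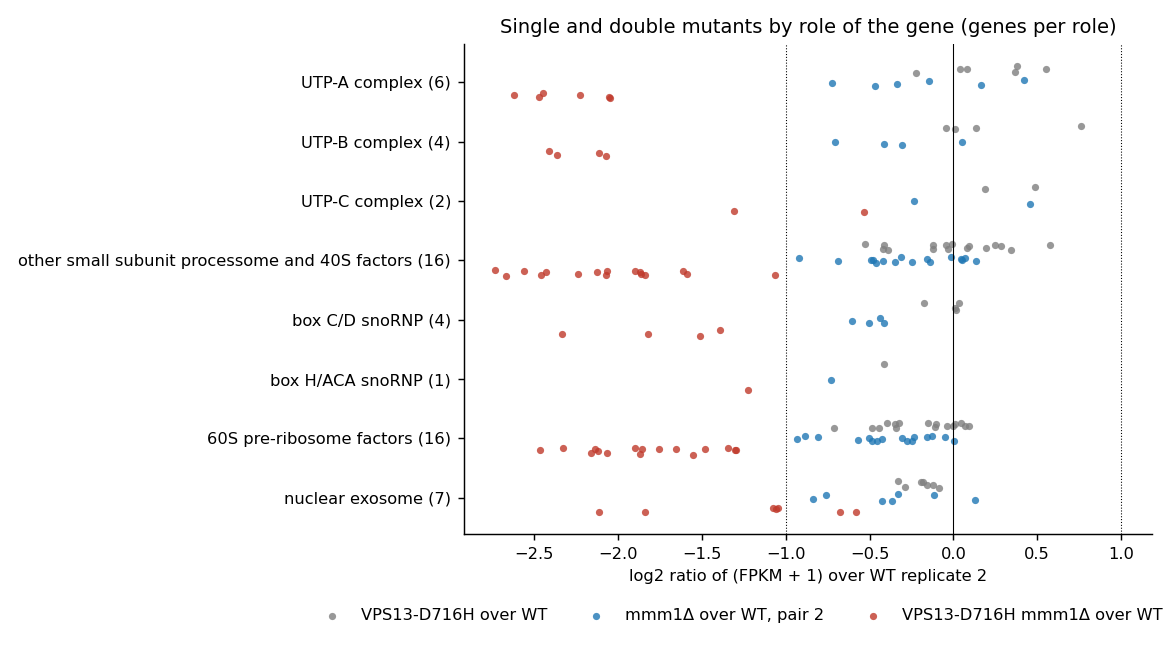
Log2 ratio of (FPKM + 1) over WT replicate 2 for each member, by role, in VPS13-D716H (grey), mmm1Δ replicate 2 (blue) and VPS13-D716H mmm1Δ (red); dotted lines mark 2-fold. The double mutant points range from -2.73 for RRP12 to -0.53 for RRP7.

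Neither single mutant had members this far below WT in the same table. VPS13-D716H alone had no member 2-fold higher or lower, where 2.21% and 2.09% of all genes were, and a median of -0.04, with 24 members above 0 (47% of all genes) and 32 below. Highest were UTP6 at 0.76, RRP12 at 0.58 and UTP9 at 0.55, and lowest RRP17 at -0.71, UTP23 at -0.53 and NOP15 at -0.49. In mmm1Δ replicate 2 the median was -0.34. There 46 of 56 members were below WT (51.6% of all genes), the direction of the double mutant. None passed 2-fold, against 8.57% of all genes higher and 6.69% lower. The difference of the double mutant from the sum of both single mutant ratios was at least 2-fold on the lower side for 40 of 56 members, against 15.1% of all genes, and its median was -1.49. The same sum for VPS13-D716H with sam37Δ left 0 members 2-fold lower and 0 higher, where 3.25% and 3.28% of all genes were. For RRP12 that difference was -3.36, and for RRP46 it was 0.12. Set directly on mmm1Δ replicate 2, the double mutant was lower for all 56 members (49.7% of all genes) and by at least 2-fold for 45, against 12% of all genes (9.43% were higher), with a median of -1.68. In that comparison RRP12 at -2.78, RRP36, a small subunit factor, at -2.51 and UTP10 at -2.47 were lowest, and the exosome genes RRP46 at -0.21, RRP42 at -0.22 and RRP45 at -0.29 highest. The ratios over WT and over mmm1Δ share the double mutant library, and so are not independent. With VPS13-D716H as the control, an alternative added after seeing the data, 48 members were at least 2-fold lower, where 12.1% of all genes were, and the median was again -1.90.

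Other genes of the pathway were low in that library as well. Of 78 further ribosome biogenesis factors, 77 were at least 2-fold lower, with a median of -2.17; NOG2, a GTPase of the large subunit, was lowest at -3.34 and the J-protein gene JJJ1 highest at -0.96. RNA polymerase I genes were at least 2-fold lower in 8 of 10, with RPA135 at -2.20, and RNA polymerase III genes in 9 of 10. Together the members and these factors made up 53 and 77 of the 719 genes that were at least 2-fold lower. Cytosolic ribosomal protein genes differed less, with a median of -0.91 over WT and 0.13 over mmm1Δ replicate 2.

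Stress genes stood the other way in the same library. All 18 genes of a list of Msn2/Msn4 targets, turned on by general stress, were at least 2-fold higher than in WT, between 1.49 and 4.47 on the log2 scale with a median of 2.50. HSP12, a membrane-protecting stress protein, was at FPKM 1011 against 44.5 in WT replicate 2, 27.0 in VPS13-D716H and 349 in mmm1Δ replicate 2. Over mmm1Δ replicate 2 the list's median was 1.76, with 14 of 18 genes at least 2-fold higher (9.43% of all genes). There 1 was 2-fold lower (12% of all genes), HSP26 at -1.15. In the other comparisons the list and the members were not always on opposite sides of 0. Opposite medians were seen in mmm1Δ pair 2, with 0.50 for the list and -0.34 for the members, in AFT1-C291F, with -1.59 and 0.61, with BPS, with -0.85 and 0.14, in sam37Δ, with -0.50 and 0.07, and in the sam37Δ double mutant, with -0.65 and 0.05. Set on sam37Δ, that double mutant also had opposite medians, -0.11 for the list and 0.08 for the members. Both medians were above 0 in mmm1Δ pair 1, at 0.82 and 0.46, and in mdm34Δ, at 0.69 and 0.80. Both were below 0 in VPS13-D716H, at -0.75 and -0.04. The part of growth state or stress in these ratios was not tested.

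**Figure D4:**
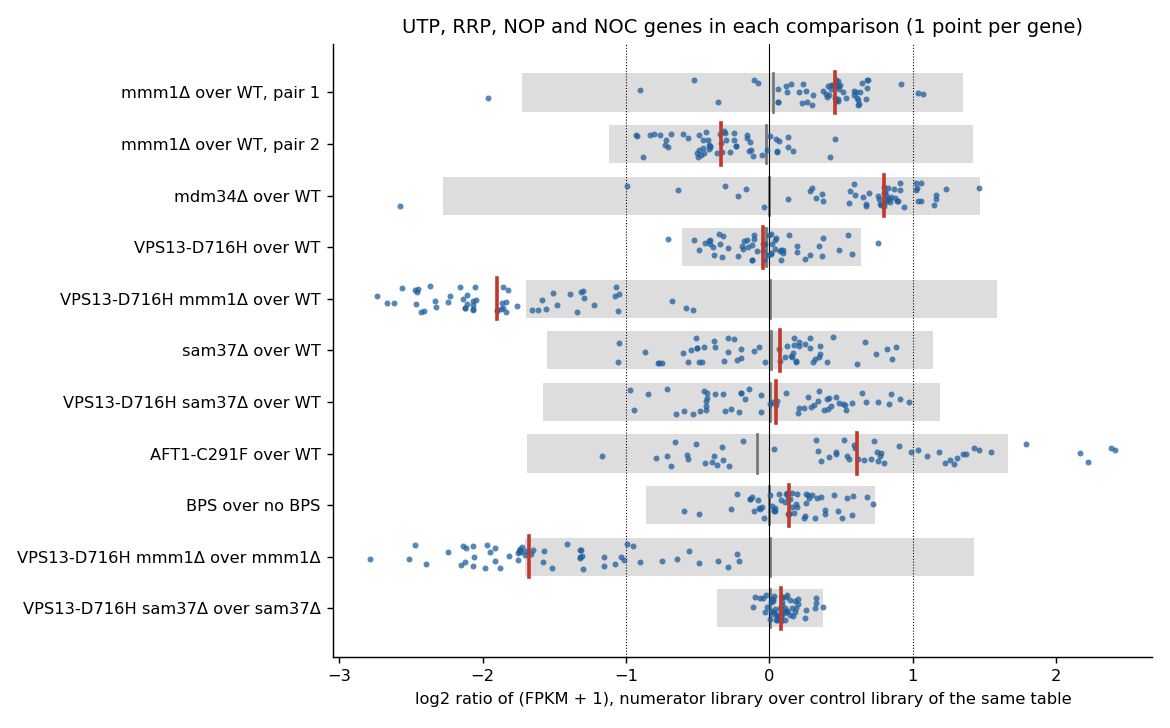
Log2 ratio of (FPKM + 1) of each member (blue points) in the 11 comparisons; red lines are the members' medians, grey lines the medians of all genes, grey bars hold all genes between the 5th and 95th percentile, and dotted lines mark 2-fold. In VPS13-D716H mmm1Δ over WT all 56 members are below 0, with the median at -1.90.

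Without Mmm1 alone, most members differed from WT in opposite directions in the pairs of libraries. In pair 1, members were higher than WT in 49 of 55 genes (51.2% of all genes were above 0), with a median of 0.46. UTP10 and RRP14, the latter a large and small subunit factor, were 2-fold higher at 1.07 and 1.04, where 8.28% of all genes were, and NOP10 was lower by -1.96, where 15.8% were. In pair 2, members were below WT in 46 of 56 (51.6% of all genes), with a median of -0.34 and none past 2-fold, against 8.57% higher and 6.69% lower among all genes. After a trend with abundance and gene length, fitted on genes on no ribosome list, was taken out of pair 1, 0 members were 2-fold higher (7.62% of all genes) and 0 lower (8.28%), with UTP10 at 0.57, RRP14 at 0.87, NOP10 at -0.79 and NOP1 at 0.26. With no trend taken out, in pair 1 UTP4 followed UTP10 and RRP14 at 0.91, and UTP15 at -0.91 and NOP1 at -0.53 were low beside NOP10. In pair 2 the lowest were NOP16 at -0.93, UTP30 at -0.92 and NOP13 at -0.88, and the highest RRP7 at 0.46, UTP10 at 0.42 and UTP9 at 0.16. For 40 members the pairs went in opposite directions, above 0 in pair 1 and below in pair 2, as did 22% of all genes. The 6 members below WT in both pairs were NOP1, NOP10, RRP42, UTP14, UTP15 and UTP30 (29.8% of all genes), and 10 (33.6%) were above in both, among them RRP5, RRP7, RRP12 and UTP10.

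In a limma fit over the 4 libraries with the table as block, none of the 56 members passed an adjusted p of 0.05 in either direction, where 2.74% of 6029 genes rose and 1.01% fell. At an unadjusted p under 0.05 there was 1 member on each side, against 19% of all genes. These were UTP15, with FPKM 86.0 and 45.4 in pair 1 and 69.2 and 41.5 in pair 2 for WT and mmm1Δ, and UTP10, with 7.06 and 15.9 in pair 1 and 25.98 and 35.1 in pair 2. Within each pair both genes kept their direction. UTP15 had a mean ratio of -0.81 ± 0.33 (moderated SE, limma adjusted p 0.235) and UTP10 of 0.75 ± 0.32 (moderated SE, limma adjusted p 0.252). NOP10 had the mean furthest from 0, -1.35 ± 0.66 (moderated SE, limma adjusted p 0.319). By role, the mean ratios over both pairs ran from -0.64 for UTP30 to 0.33 for RRP12 among the other small subunit factors and from -0.37 for NOP13 to 0.40 for RRP14 among the large subunit factors. They ran from -0.11 for UTP18 to 0.24 for UTP6 in UTP-B, and from 0.14 for UTP22 to 0.47 for RRP7 in UTP-C. NOP1 at -0.57 and RRP9 at 0.09 were the ends of the box C/D proteins, and RRP42 at -0.47 and RRP4 at 0.29 those of the exosome. The lists of other biogenesis factors, RNA polymerase I and III and regulators of ribosome synthesis had no call either. Among 137 ribosomal protein genes, whose median was -1.35, none passed and 71 had an unadjusted p under 0.05. Of the 18 Msn2/Msn4 stress genes, 3 were called higher (2.74% of all genes), HSP12, HSP26 and YGP1, and 0 lower (1.01%).

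Set on WT replicate 1, most members were higher in the mdm34Δ library. The median was 0.80, with 48 of 55 members above 0 (50% of all genes) and 11 at least 2-fold higher, where 11.8% of all genes were; 1 was lower, where 23.4% were. RRP14 led at 1.46 with FPKM 13.2, 28.1 and 38.0 in WT, mmm1Δ and mdm34Δ. RRP17 followed at 1.23 and RRP9 at 1.16, and all 3 overlap another gene's locus. Without such genes and those under 300 nt, 7 of 46 members were 2-fold higher, where 11.1% of all genes kept were. The lowest were NOP10 at -2.57, UTP15 at -0.99 and NOP1 at -0.64, with NOP1 at 504, 350 and 324 in the same order. NOP10 is a short gene, and genes under 300 nt on no ribosome list had a median of -1.01 in this comparison. With the trend taken out NOP10 was at -0.22 and NOP1 turned to 0.57, 0 members were 2-fold lower (11.7% of all genes) and 13 higher (10.4%). Both ERMES mutants of the table share WT replicate 1. Against WT replicate 2, of another table, with ratios centred on all genes, the members' median in mdm34Δ was -0.054 and none was 2-fold higher. UTP20 was the member under the filter of a mean FPKM of 5 in this table, at 1.90 in WT, 2.51 in mmm1Δ and 3.27 in mdm34Δ.

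Cells without Sam37 had members spread on both sides of WT. The median was 0.07, with 29 above 0 (50.7% of all genes) and 27 below, none 2-fold higher (6.32% of all genes) and 2 lower (10.7%). UTP23 at -1.05 and NOP15 at -1.05 were the lower ones; with the trend taken out they were at -0.88 and -0.72, and 0 members were 2-fold lower (7.5% of all genes). Without that step, UTP25, RRP12 and RRP5, at 0.88, 0.86 and 0.82, were the highest. All 7 exosome members were below WT, from RRP42 at -0.87 to RRP6 at -0.07. Cytosolic ribosomal protein genes had a median of -1.70 in the same library.

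With VPS13-D716H added to sam37Δ, members stayed within 2-fold. Over sam37Δ the median was 0.08, no member passed 2-fold, where 1.18% of all genes were higher and 1.02% lower, and 49 of 56 were above 0, against 50.3% of all genes (49.7% were below). The ratios stayed between -0.12 for UTP6 and 0.37 for RRP14, with RRP3 and RRP43 at -0.10 and -0.07 next to the one end and NOP53 and UTP10 at 0.33 and 0.32 next to the other. Over WT the double mutant VPS13-D716H sam37Δ had a median of 0.05 with 31 members above 0 and 25 below (49.7% of all genes), none past 2-fold (6.81% higher and 10.9% lower among all genes), RRP12, NOP14 and UTP25 at 0.98, 0.91 and 0.85 at its upper end, and UTP23, NOP15 and RRP42 at -0.98, -0.94 and -0.84 at its lower end.

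In the AFT1-C291F library the long genes of the family were higher and the short ones lower. Of 56 members 17 were at least 2-fold higher, where 15.6% of all genes were, and 1 was lower, where 14.2% were; the median was 0.61, with 40 members above 0 (46.6% of all genes). It was the highest of the 7 libraries of its table for 37 members, against 28.8% of all genes. UTP20 had FPKM 16.6 in WT replicate 2 and 92.6 in AFT1-C291F, with 3.72 to 23.3 in the other 5 libraries, a ratio of 2.41 over WT. RRP5 was at 157 against 29.3 in WT and at most 53.0 elsewhere in the table, a ratio of 2.38. RRP12, at 2.23, and UTP10, at 2.17, came next. At the other end NOP10 was at -1.17, NOP6 at -0.79 and RRP46 at -0.72.

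The order of these ratios followed gene length closely. Across the 56 members, which share the same 2 libraries and are not independent replicates, the ratio and log2 length were correlated with Pearson's r = 0.93 and Spearman's rho = 0.91. For 5860 genes on no ribosome list rho was 0.59. Members under 1000 nt had a median of -0.43, those from 1000 to below 2000 nt 0.63 and those of 2000 nt or more 1.40, beside -0.59, 0.03 and 0.98 for the unlisted genes of the same lengths. Of the 16 members of 2000 nt or more, 15 were 2-fold higher, where 48.8% of the unlisted genes of that length were. Once the trend with abundance and length was removed, the members' median was 0.37, and 2 were at least 2-fold higher, where 8.05% of all genes were. UTP20 turned from 2.41 to -0.16, and RRP12 fell from 2.23 to 0.85. Length moves with this result, and its part in it beyond this fit was not tested.

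**Figure D5:**
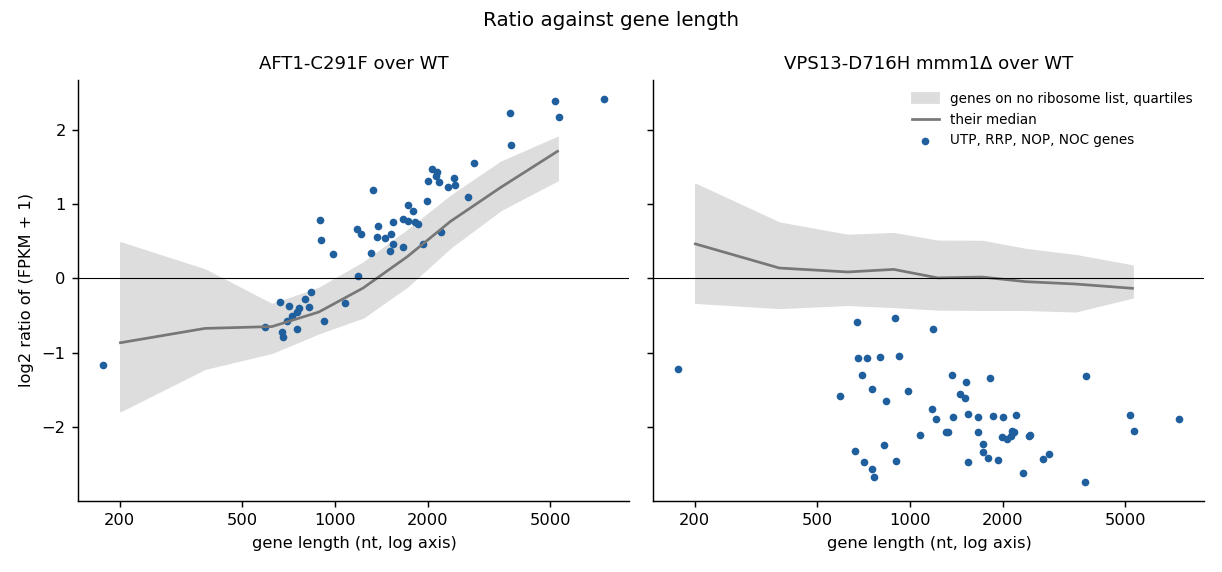
Log2 ratio of (FPKM + 1) against gene length (log axis) for members (blue) in AFT1-C291F over WT (left) and VPS13-D716H mmm1Δ over WT (right); the grey line and band are the median and quartiles of genes on no ribosome list by length class. On the left members follow the slope of the other genes, and on the right they lie below the band at all lengths.

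Removing the same trend changed the members little in the double mutant. In VPS13-D716H mmm1Δ their median was then -1.93, and 53 were again at least 2-fold lower, where 13.9% of all genes were. By length class the medians were -1.50, -1.88 and -2.09 from short to long members, beside 0.13, 0.01 and -0.07 for unlisted genes.

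With the iron chelator, no member differed by 2-fold. With BPS, 43 of 56 members were above the clean YPD library, where 49.2% of all genes were (50.8% were below), but the median was 0.14 and none passed 2-fold, against 3.18% of all genes higher and 3.91% lower. UTP18, of UTP-B, was highest at 0.72, followed by RRP4 at 0.68 and NOC4 at 0.58. RRP3 at -0.59, UTP14 at -0.49 and NOP16 at -0.27 were lowest. NOP1 had FPKM 1060 without and 1165 with BPS, RRP5 54.5 and 55.2, and RRP6 68.5 and 68.8. The median was 0.03 for ribosomal protein genes and 0.24 for the 78 other biogenesis factors, with none past 2-fold.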

How the data were processed

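The authors deposited FPKM per gene in 3 tables, as the deposited files' headers show. TopHat2 2.0.8, Cuffdiff 2.0.2 and build sacCer3 are named per the submitters' processing notes, without roles or settings. Kits were TruSeq or KAPA stranded, per the labels' protocols, which do not assign them to libraries. Depth is unknown, since whole reads could not be recovered: of 50 low values per library, 6 to 14% were multiples of 1 step (tolerance 0.05). WT replicate 2 was placed in the second of these by its column name, although its description label points to another.

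Members were joined across tables by systematic name. A name of the pattern is carried by 40 of them in the first of the tables and by 56 in the others. All 56 matched the reference annotation. Ratios used a pseudocount of 1 and a mean FPKM of at least 5. The mmm1Δ comparison used limma 3.58.1 in R 4.3.3 (trend, two-sided, Benjamini-Hochberg adjustment) with table as block, tested on simulated data. Same-numbered libraries had a correlation of deviations of 0.62 over 6029 genes. Nothing states that replicates came from separate cultures, so p-values measure the spread between these libraries only. The trend removal was a cubic polynomial in mean abundance and length. Strand use in counting is not given in the sources used here, so 8 members sharing a listed locus with another gene are uncertain. Of the other biogenesis factors listed, 78 matched by name.

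Named genes are the 3 highest and lowest members per comparison, role extremes, and 7 central members (NOP1, NOP56, NOP58, UTP10, UTP20, RRP5 and RRP6). Further genes were named after their values were seen. The members and lists were chosen with earlier results of these data known.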

Additional observations from a re-analysis of the deposited data

Results flagged for a closer look

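With VPS13-D716H the members were much lower in cells without Mmm1 and differed little in cells without Sam37. Over mmm1Δ replicate 2 their median log2 ratio was -1.68, with all 56 below 0 (49.7% of all genes). Over sam37Δ it was 0.082, with 49 of 56 above 0 (50.3% of all genes). The medians have opposite signs. The one over sam37Δ lies within the quartiles of all genes, -0.109 and 0.114. Those quartiles describe single genes and not the median of a set. Each side is 1 library over 1 library, and the difference was not tested.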

How the results depend on the processing

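Results were recomputed with a pseudocount of 0.1, no filter on low values, ratios centred on the median of all genes, a trend with abundance and length removed, and without genes that are under 300 nt or overlap another. In these runs the medians of the 9 comparisons of single libraries kept their direction, except in sam37Δ over WT. There the median went from 0.07 to -0.013 with the trend removed. All stayed within 0.56 of their value, the standard deviation of the members' median between the mmm1Δ pairs. It comes from only 2 medians of opposite sign, 0.46 and -0.34, so staying within it is a weak check. With the trend removed the median fell from 0.61 to 0.37 in AFT1-C291F and from 0.80 to 0.58 in mdm34Δ. The spread of 0.56 exceeds the medians of VPS13-D716H, sam37Δ, BPS and both comparisons of VPS13-D716H sam37Δ. It therefore cannot show whether these small medians are stable. Some counts and single genes changed, as did the mdm34Δ median under another control. With WT replicate 2 as control and centred, the BPS median was 0.0092, against 0.14. That control is of another table, normalized separately, and grew in YPD instead of clean YPD. The value thus mixes these differences with that of BPS. Without short or overlapping genes, 7 of 46 members were 2-fold higher in mdm34Δ, where 11.1% of all genes kept were. Set on WT replicate 2 and centred, the mdm34Δ median was -0.054, 0 members were 2-fold higher, RRP14 was at -0.0067 and RRP17 at -1.18. In AFT1-C291F trend removal left 2 members at least 2-fold higher and put UTP20 at -0.16. The same step took the members 2-fold lower from 2 to 0 in sam37Δ (7.5% of all genes). In mdm34Δ it took them from 1 to 0 (11.7% of all genes), and NOP1 turned to 0.57. In mmm1Δ pair 1 it left none past 2-fold (7.62% higher and 8.28% lower among all genes), and NOP1 turned to 0.26. In pair 2 it put 1 member 2-fold lower, from 0, where 6.17% of all genes were. That member was UTP30 at -1.03. For mmm1Δ no setting gave a called member, including the fit with no replicate block, where the median of the mean ratios was -0.10 against 0.06 with the block. Over all genes the fit called 165 higher and 61 lower, against 248 and 124 with the pseudocount of 0.1, 20 and 3 with no filter, 49 and 4 with the trend removed, 364 and 179 without short or overlapping genes, and 0 with no replicate block (256 at an unadjusted p under 0.05). The smallest adjusted p of a member by limma was between 0.1003 and 1.000 over these settings. Without replicate 1 or 2 the mmm1Δ median was between -0.34 and 0.46, which are values of 1 pair with no test. Depth is unknown, so no counting error could be set beside any FPKM value, and most comparisons rest on 1 library a side.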

Other observations

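The promoter motifs were also read in genes that are on no ribosome list. These lists were matched by name and are not complete. The listed biogenesis factor DBP4 found no match, so unlisted genes can include further factors of the pathway. In VPS13-D716H mmm1Δ over WT, 45 such genes with both PAC and RRPE had a median log2 ratio of -1.31, and 26 of them (57.8%) were at least 2-fold lower. The 105 with PAC alone had a median of -0.93 and 48.6% at least 2-fold lower, and the 258 with RRPE alone -0.54 and 26.7%. Of 4950 unlisted genes with neither, 5.52% were at least 2-fold lower, with a median of 0.08. Divergent gene pairs share a promoter and hence their matches, and the comparison is again of 1 library with 1 library.

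Regulators of ribosome synthesis differed from each other in the double mutant. Of 8 listed, 5 were below WT replicate 2 (49.8% of all genes), with a median of -0.47. At least 2-fold lower were 3, where 11.6% of all genes were. FHL1 at -1.09, SCH9 at -0.84 and CRF1 at -0.10 were among those below WT. TOD6, a repressor that binds PAC, had FPKM 68.8 in WT replicate 2 and 5.24 in VPS13-D716H mmm1Δ, a ratio of -3.48, while its paralog DOT6 was at 128 and 167. IFH1, a coactivator of ribosomal protein genes, was at 8.84 and 1.53. STB3, which binds RRPE, was at 28.8 and 35.5, and SFP1, an activator of both gene groups, at 25.4 and 26.4.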
